A study of Mus musculus with 14 samples.

Results

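The 39 genes described here encode the machinery that copies DNA and the factors that bring cells into S phase. They were taken as a list of gene symbols and not by their values, but the list was chosen with earlier results of these data known. All 39 were found among the 43472 genes of both tables of normalised counts. A normalised count is the number of reads assigned to a gene divided by the size factor of its library. RNA was sequenced from primary fibroblasts of C57BL/6 mouse tail tips, a mixed culture and not a clonal line, grown in medium with serum and scratched as a wound model. The cells were left untreated or were given autologous micrograft (AMG), a soluble extract of minced mouse skin from which cells had been removed. Replicate 1 was collected at 1, 5, 12 and 24 h, with 1 untreated and 1 AMG-treated library at each time, and replicates 2, 3 and 4 of both groups were collected at 5 h. The age of the mice, the number of mice per culture and any vehicle given to untreated cells are not given in the sources used here.

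DNA replication is prepared when the origin recognition complex, with Cdc6 and Cdt1, loads the MCM helicase onto origins. The helicase is activated by Cdc45, Mcm10 and the GINS complex, primase with polymerase alpha starts each strand, and polymerases delta and epsilon extend it behind the sliding clamp PCNA. Ribonucleotide reductase, thymidylate synthase and thymidine kinase supply the deoxynucleotides. Most of these genes are transcribed in late G1 and S phase under E2F factors, which cyclin-dependent kinases release from the retinoblastoma protein, so the group is widely read as a sign of cycling cells. During wound repair fibroblasts can divide as well as migrate. In bulk RNA, fewer cells in S phase and less RNA per cell cannot be told apart. A paper that used these data assessed the cell cycle of micrograft-treated fibroblasts separately, with an EdU assay. It reported that their cell cycle phases did not change and that their proliferation rate stayed the same. Whether the sequenced cells differed in S phase was not tested here.

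The promoters of the genes were searched because the group shares E2F control in the textbook account, which the list did not use. A window of 250 bases before and 50 bases after the RefSeq gene start on GRCm38.p6 was given for 33 of the 39 genes, and the other 6 (Mcm4, Gins1, Gins2, Rfc2, Pole and Ccne2) were not searched. The E2F letters searched were TTCCCGC or TTCGCGC or TTGCCGC or TTGGCGC on both strands, with overlapping matches counted separately. At least 1 match was held by 21 of the 33 promoters (63.6%), against 2936 of 27025 genes with a promoter (10.9%). At least 2 matches were held by 11 (33.3%), against 1.37% of all genes. The CCAAT box, searched as CCAAT on both strands, was held by 20 (60.6%), against 41.1% of all genes. A list of other replication and G1/S genes, described below, came close to the 39. Of its 51 genes with a promoter, 28 (54.9%) held at least 1 E2F match and 9 (17.6%) at least 2. The CCAAT box was held by 25 of them (49.0%). Mcm6 held 5 E2F matches, Pola1 held 4, and Mcm3, Mcm5 and Mcm7 held 3 each. The 4 sequences printed are those with the most matches, with ties broken by symbol, each read 5′ to 3′ on the strand of its gene with the matched letters in capitals. Mcm6 (chr1:128359656-128359955, minus strand), Mcm3 (chr1:20820263-20820562, minus strand) and Mcm5 (chr8:75109259-75109558, plus strand) encode subunits of the helicase, and Pola1 (chrX:93632106-93632405, minus strand) encodes the catalytic subunit of polymerase alpha.
Mcm6: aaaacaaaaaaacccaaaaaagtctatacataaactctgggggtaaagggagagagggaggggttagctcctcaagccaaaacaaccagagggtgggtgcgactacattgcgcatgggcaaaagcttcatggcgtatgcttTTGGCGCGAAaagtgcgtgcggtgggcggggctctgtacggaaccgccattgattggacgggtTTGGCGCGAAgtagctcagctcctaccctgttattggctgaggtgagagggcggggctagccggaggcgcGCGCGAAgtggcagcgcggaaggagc
Pola1: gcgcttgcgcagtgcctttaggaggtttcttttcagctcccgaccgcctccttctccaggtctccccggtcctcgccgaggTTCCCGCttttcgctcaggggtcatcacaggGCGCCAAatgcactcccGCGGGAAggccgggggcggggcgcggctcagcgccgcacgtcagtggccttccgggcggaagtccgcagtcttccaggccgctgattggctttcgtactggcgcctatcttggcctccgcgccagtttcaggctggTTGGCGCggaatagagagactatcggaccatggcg
Mcm3: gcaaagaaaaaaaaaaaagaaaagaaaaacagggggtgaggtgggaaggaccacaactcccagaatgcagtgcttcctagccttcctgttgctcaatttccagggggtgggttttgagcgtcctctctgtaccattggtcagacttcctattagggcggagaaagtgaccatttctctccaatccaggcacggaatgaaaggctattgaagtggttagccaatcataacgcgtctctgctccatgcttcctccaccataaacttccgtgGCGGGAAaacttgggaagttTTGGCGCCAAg
Mcm5: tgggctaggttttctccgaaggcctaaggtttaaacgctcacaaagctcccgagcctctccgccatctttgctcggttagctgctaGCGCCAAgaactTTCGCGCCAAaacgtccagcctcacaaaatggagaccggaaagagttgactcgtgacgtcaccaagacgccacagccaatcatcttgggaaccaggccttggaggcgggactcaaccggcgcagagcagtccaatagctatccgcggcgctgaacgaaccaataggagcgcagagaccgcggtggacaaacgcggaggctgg
The Mcm6 promoter held a pair of identical blocks, each made of a match on the plus strand and an overlapping match on the minus strand, which began 109 and 46 bases before the gene start. Over the 21 promoters with a match, 28 of the 40 matches began between 100 bases before and 50 bases after the start. Positions were not counted over all promoters, so no share over all genes stands beside this count. The median log2 fold change at 5 h was -0.54 for the 21 genes with a match and -0.42 for the 12 without one, and these ranges overlapped (-0.98 to -0.04, and -0.65 to 0.04). A match of letters is a description of the sequence and does not show binding.

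**Figure D1:**
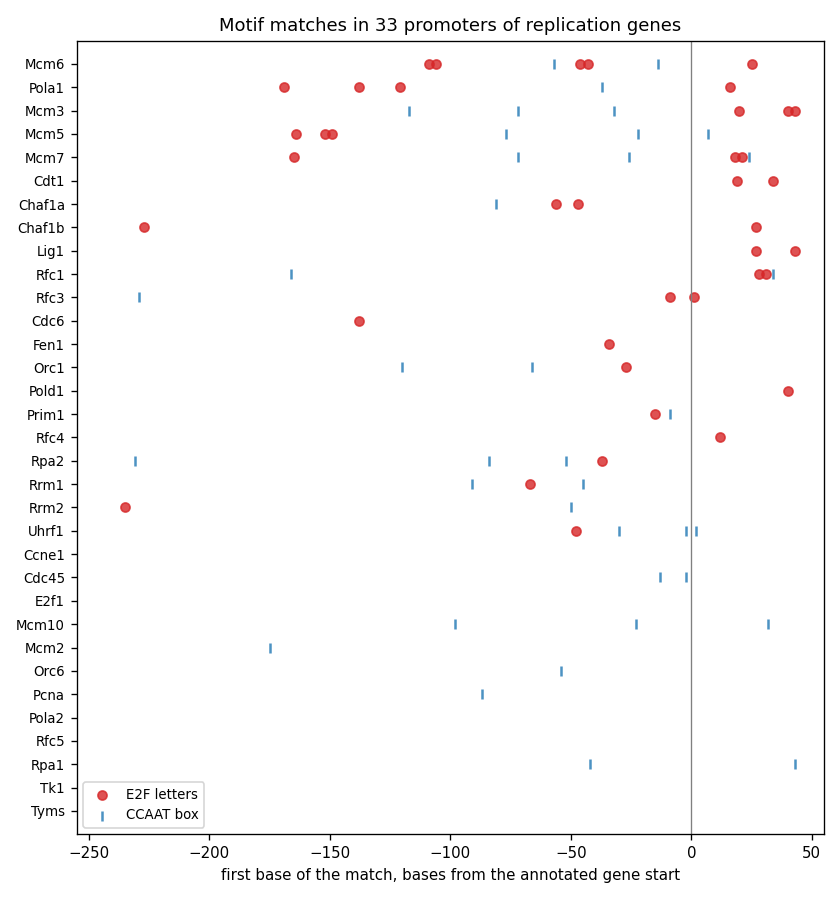
Position of motif matches in the promoters of 33 replication genes. The horizontal axis gives the first base of each match in bases from the annotated gene start, each row is 1 gene, red points are the E2F letters and blue ticks are the CCAAT box. Of the 40 E2F matches, 28 lie from 100 bases before to 50 bases after the start, and 12 genes have none. Positions over all promoters were not counted.

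The 14 libraries held 12545537 to 34696529 reads, and 5.91 to 15.87 of every 10000 reads fell in the 39 genes. All 10 fibroblast markers were present in every group, with summed normalised counts of 270253.5 to 675537. The 7 keratinocyte markers summed to at most 172.1, with Krt1 at 0 in every group of libraries, and the 7 leukocyte markers to 90.5 to 1709.6, with Cd3e at 0. In untreated cells 6 of the leukocyte markers reached a normalised count of 10, both in replicate 1 and in replicates 2 to 4. In treated cells 4 did so in replicate 1 and 5 in replicates 2 to 4. Their sums in replicate 1 were 1034.6 to 1709.6 in untreated and 332.1 to 1132.0 in treated cells. In replicates 2 to 4 they were 90.5 to 1164.5 and 131.2 to 1086.6. The 5 endothelial markers summed to at most 238.1, and the 5 adipocyte markers to 259.1 to 2067.5. In each group of libraries, 1 of the 5 adipocyte markers reached a normalised count of 10. In replicates 2 to 4, the 5 skeletal muscle markers summed to 2898.5 to 7290.7 in untreated and to 1746.9 to 5493.6 in treated cells. Myh4 and Myod1 were at 0 there, and 1 of the 5 reached a normalised count of 10 in untreated and 2 in treated cells. In replicate 1 the 5 summed to 702.2 to 2040.8 in untreated and to 274.5 to 1697.1 in treated cells. A pair of libraries stood apart. Untreated 5h replicate 1 had 7.0% and AMG-treated 1h replicate 1 had 5.10% of reads in 88 ribosomal protein genes, against 2.27% to 3.47% in the other 12. Across genes, the treated to untreated ratio of replicate 1 was related to exon length, with a Spearman rho of -0.44 for the 1 h pair and 0.42 for the 5 h pair. For replicates 2, 3 and 4 the rho was -0.32, -0.21 and -0.39.

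The first question was how the replication genes stood after 5 h of AMG in replicates 2 to 4. Their ratios of treated to untreated cells lay mostly below 1, furthest for Pole, Ccne2 and Cdc6, and no gene of the list rose. The log2 fold change was below 0 for 36 of the 39 genes, where 51.6% of the 13096 genes tested were below 0. Its median was -0.45, against -0.02 over all genes tested, and it ranged from -1.44 for Pole to 0.18 for Rfc2. In the comparison of 3 treated with 3 untreated libraries by limma on log2(normalised count + 1), 0 of the 39 passed an adjusted p of 0.05 as lower or as higher, where 0.267% of all genes passed as lower and 0.97% as higher. At an unadjusted p under 0.05 there were 13 genes, all of them lower, where 11.1% of all genes were lower at this level. In edgeR 9 genes were lower at an unadjusted p under 0.05, where 9.65% of all genes were, and 0 passed the adjusted threshold. In DESeq2 the genes Mcm4, Rpa1, Pole and Ccne2 passed as lower, where 4.53% of all genes did. Without AMG-treated 5h replicate 3 the unpaired limma test gave 9 lower genes, where 8.05% of all genes were lower.

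The replicate numbers paired the libraries, and the block changed this result. With the replicate number as a block in limma, 22 of the 39 genes fell (56.4%) and 0 rose, where 19.3% of all genes passed as lower and 17.9% as higher. The same 22 genes passed in edgeR with the block (18.6% of all genes), and with a length correction added to limma and the block 21 passed (16.2% of all genes), of which 19 were among the 22. Treated cells were lower in each of the 3 pairs for 30 genes (76.9%), where 34.5% of all genes were. The median over the genes was -0.45, -0.44 and -0.54 in the pairs of replicates 2, 3 and 4. The 3 treated values lay below the 3 untreated values without overlap for 13 genes and above them for 0, where 13.6% and 15.1% of all genes did so. In 23 of the 39 genes replicate 3 was the highest of the 3 libraries in both groups, which was so for 28.6% of all genes, and the genes took 15.87 of every 10000 reads in untreated replicate 3 against 11.73 and 11.93 in replicates 2 and 4. In treated cells the values were 11.68 in replicate 3, 8.04 in replicate 2 and 7.88 in replicate 4. The count was 9 without replicate 2 and 11 without replicate 4, where 1419 and 2674 of the 13096 genes tested passed in either direction. Without replicate 3 it was 25, and these included the 22, where 6800 of all genes passed in either direction. The 8 genes Mcm4, Mcm5, Mcm6, Cdc6, Pole, Rrm1, Rrm2 and Ccne2 passed in each of these 3 fits. How many of all genes passed in each of the 3 was not counted, so no share stands beside these 8. All genes were counted in either direction only in these fits, so the member counts have no matching share of lower genes. Over the 22 alternatives to the test, the lowest adjusted p of the 22 genes ranged from 3.67e-07 for Rrm2 to 0.0363 for Uhrf1, and the highest from 0.298 for Ccne2 to 0.821 for Mcm7.

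**Figure D2:**
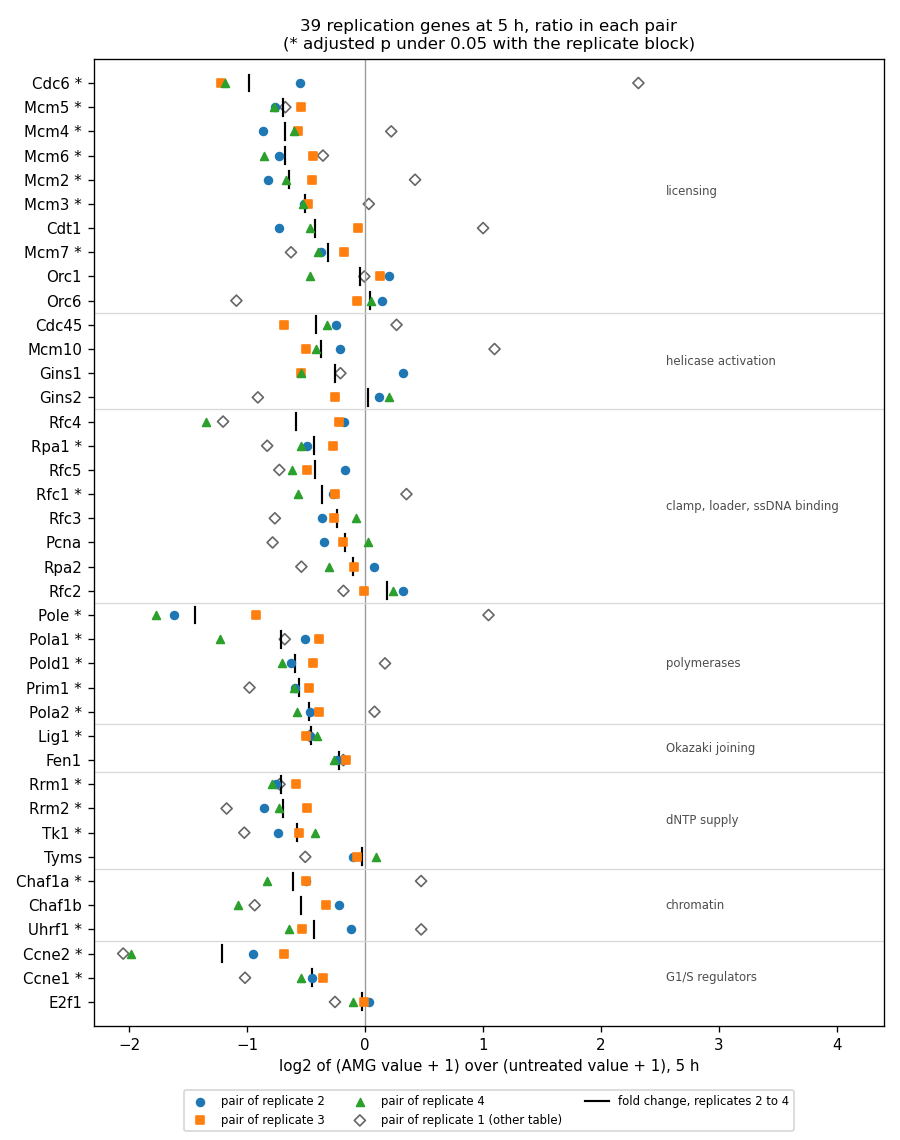
Log2 ratio of treated to untreated (normalised count + 1) at 5 h for each of the 39 genes, grouped by role. Filled symbols are the pairs of replicates 2, 3 and 4, open diamonds the pair of replicate 1 from the separately scaled table, black bars the fold change over replicates 2 to 4, and stars mark the 22 genes past the threshold with the replicate block. Most filled symbols lie left of 0, the polymerase and primase genes all do, and the open diamonds of Cdc6, Pole, Mcm10 and Cdt1 lie at or above 1.

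Of the 10 licensing and origin binding genes, 7 fell with the replicate block, and the median log2 fold change was -0.58. The 7 were Cdc6 and all 6 subunits of the MCM helicase. Mcm4 had normalised counts of 781, 933 and 876 in untreated replicates 2, 3 and 4 and of 427, 629 and 578 in treated ones. The 2 groups did not overlap, and each pair of replicates 2 to 4 was lower. The log2 change of -0.68, with an SE of 0.18, gave an adjusted p (limma) of 0.109 unpaired and 0.00227 blocked. Mcm6 had 969, 1501 and 1252 in untreated and 584, 1106 and 692 in treated cells. The treated value of replicate 3 lay above the untreated value of replicate 2, so the groups overlapped, although each pair was lower. The changes of Mcm5 (-0.69), Mcm6 (-0.67), Mcm2 (-0.65) and Mcm3 (-0.51) had adjusted p with the block from 0.00216 to 0.00696. Mcm7 changed least of the subunits, by -0.32 (adjusted p = 0.0389 with limma and the block), and its exons hold the microRNA genes Mir25 and Mir93.

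Cdc6, which recruits the helicase to origins, had the largest change among the licensing genes. Its normalised counts were 95.7, 192 and 135 in untreated and 64.9, 82.0 and 58.7 in treated replicates 2, 3 and 4. The groups did not overlap, and the change of -0.98 on the log2 scale, with an SE of 0.31, gave an adjusted p (limma) of 0.142 unpaired and 0.00800 blocked. Cdt1, the partner of Cdc6, went from 158 ± 37.7 to 116 ± 12.0 (mean ± SD, n = 3 in each group), a change of -0.42 that did not pass in either fit. The origin recognition genes stood near 0, with -0.04 for Orc1 and 0.04 for Orc6, and their pairs pointed both ways.

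The 5 polymerase and primase genes all fell with the block, and each was lower in 3 of 3 pairs. Pole, the catalytic subunit of polymerase epsilon, had the largest change of the 39 genes. It had 264, 434 and 285 normalised counts in untreated and 85.2, 228 and 82.5 in treated replicates 2, 3 and 4. All treated values were below all untreated ones, and replicate 3 was highest in both groups. The log2 change was -1.44 with an SE of 0.43. Its adjusted p was 0.126 in limma and 0.000873 with the block, in a range from 7.45e-07 to 0.360 over the alternatives. With a correction for transcript length the change of Pole was -1.18. Pola1 and Pola2, subunits of polymerase alpha, changed by -0.71 and -0.48, Pold1, the catalytic subunit of polymerase delta, by -0.59, and the primase gene Prim1 by -0.56. Their adjusted p with limma and the block ranged from 0.00801 to 0.0318. Under the length correction with the block, Pola1 (0.0564) and Pola2 (0.134) no longer passed.

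Of the 4 genes for deoxynucleotide supply 3 fell with the block. Rrm1, the large subunit of ribonucleotide reductase, had 2310, 3954 and 2062 normalised counts in untreated and 1365, 2643 and 1193 in treated replicates 2, 3 and 4. The groups overlapped because replicate 3 was high in both, while the 3 pairs gave -0.76, -0.58 and -0.79. The SE of its log2 fold change of -0.71 was 0.36 without the block and 0.09 with it, and the adjusted p in limma was 0.283 and 0.000724. Rrm2, the small subunit that limits the enzyme in S phase, had 3142, 3747 and 2475 in untreated and 1732, 2667 and 1497 in treated cells. Its log2 change of -0.69 had an SE of 0.25, and its adjusted p was 0.173 in limma and 0.00117 with the block. Thymidine kinase, Tk1, changed by -0.57 (0.00753 with limma and the block). Thymidylate synthase, Tyms, went from 363 ± 128 to 356 ± 115 (n = 3), a change of -0.02 (SE 0.31), and it has a processed pseudogene, Tyms-ps.

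The clamp, its loader and the single-strand binding proteins changed less, with a median of -0.30 over 8 genes, of which Rpa1 and Rfc1 fell with the block. Rpa1, the large subunit of replication protein A, had 2237, 2016 and 2556 in untreated and 1589, 1672 and 1755 in treated cells, without overlap, and changed by -0.43 on the log2 scale, with an SE of 0.13 and a limma adjusted p of 0.123 unpaired and 0.00756 blocked. Rfc1, the large subunit of the clamp loader, changed by -0.36 (0.0322 with limma and the block, and 0.0819 when the length correction was added). The clamp itself, Pcna, went from 759 ± 53.1 to 679 ± 96.4 (n = 3), a change of -0.17 (SE 0.15) that did not pass, and processed pseudogenes of it are annotated. Rfc2 had a value of 0.18 and did not pass, and 15.1% of its exon bases overlap Lat2 on the other strand. Of the Okazaki fragment genes, the ligase Lig1 changed by -0.46 (0.0173 with limma and the block), and the flap nuclease Fen1 by -0.22 and did not pass (0.0425 with limma, the block and the length correction). Of Fen1, 78.8% of exon bases overlap the antisense gene Gm10143. None of the 4 helicase activation genes passed. Cdc45 had a value of -0.42, Mcm10 of -0.37, Gins1 of -0.25 and Gins2 of 0.02, and 67.3% of the exon bases of Gins2 overlap Gse1 on the other strand. The strand setting of the counting is not given in the sources used here, so reads of such overlapping genes cannot be told apart.

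Among the chromatin genes, Chaf1a, the large subunit of the histone chaperone CAF-1, changed by -0.61 (adjusted p = 0.00629 with limma and the block), and Uhrf1, which guides maintenance methylation, by -0.43 (0.0370). Chaf1b changed by -0.54 and did not pass (0.0720). For Chaf1a, 52.5% of exon bases overlap Ubxn6. The cyclin E genes, which drive the entry into S phase, differed in size of change. Ccne2 had 210, 159 and 263 normalised counts in untreated and 108, 98.4 and 65.5 in treated replicates 2, 3 and 4, without overlap. It changed by -1.21 on the log2 scale, with an SE of 0.29 and a limma adjusted p of 0.0940 unpaired and 0.00616 blocked, and 17.4% of its exon bases overlap Ints8. Ccne1 had 757, 823 and 753 in untreated and 553, 643 and 517 in treated cells, also without overlap, and changed by -0.45 (adjusted p = 0.130 with limma and 0.0107 with the block). E2f1, itself a target and a driver of the programme, went from 601 ± 47.5 to 589 ± 25.9 (n = 3), a change of -0.03 (SE 0.13).

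**Figure D3:**
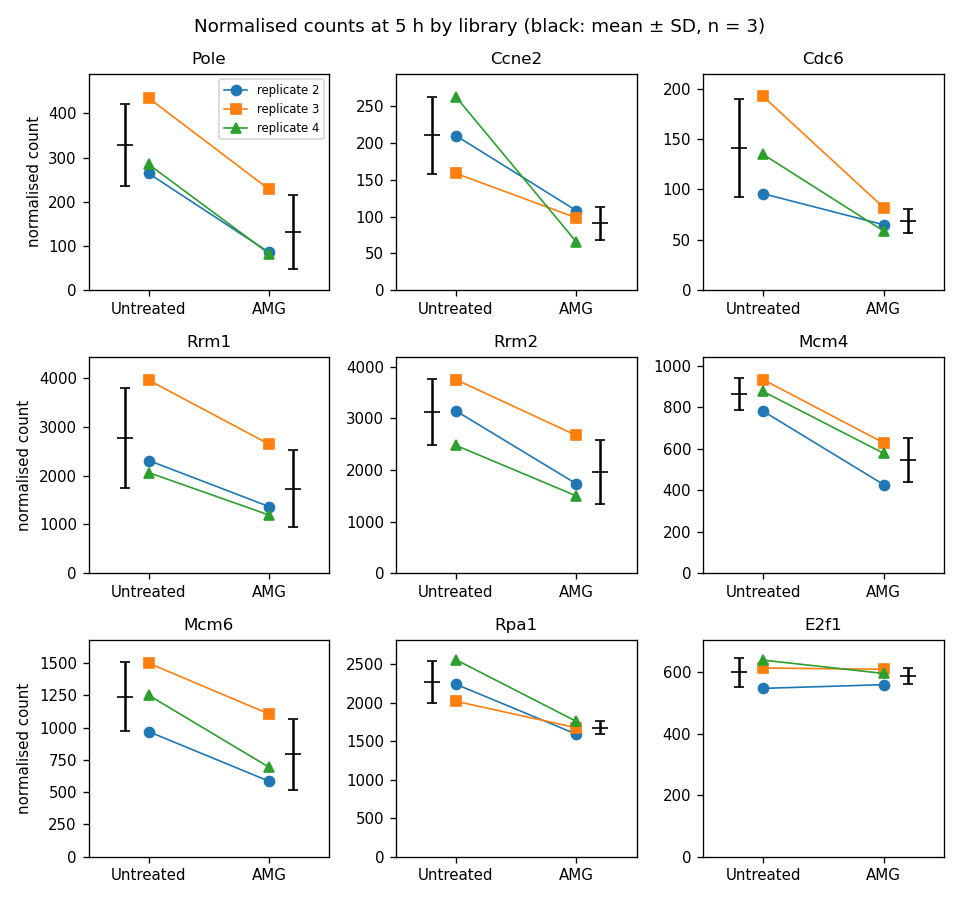
Normalised counts of 9 genes in each untreated and AMG-treated library at 5 h, replicates 2 to 4. Lines join libraries of the same replicate number and black bars give the mean ± SD (n = 3). The lines of Pole, Ccne2, Cdc6, Rrm1, Rrm2, Mcm4, Mcm6 and Rpa1 go down in each pair, while those of E2f1 stay nearly level.

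Per kb of principal transcript, the genes spanned a wide range of levels in untreated cells at 5 h. Rrm2 was highest with 1423 ± 290 normalised counts per kb (SD, n = 3), followed by Rrm1 with 694 ± 257 and Pcna, whose mean was 500.0. The lowest and highest libraries of Rrm1 were 516 and 989 per kb, so Rrm1 and Pcna (478 to 540) overlapped, whereas Rrm2 (1129 to 1709) lay above both. The MCM subunits lay between 193 ± 34.8 for Mcm2 and 426 ± 91.5 for Mcm6 per kb. The lowest levels were those of Pola1 (42.4 ± 12.4), Mcm10 (31.9 ± 6.80) and Orc1 (22.5 ± 4.67) per kb. In treated cells Rrm2 was still highest, at 896 ± 282 per kb.

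A list of 64 other replication and G1/S genes was counted in the same way. The median log2 fold change was -0.18, 44 of the 64 were below 0, and 0 passed in limma without the block, where 14 (21.9%) had an unadjusted p under 0.05, against 23.1% of all genes. With the block 19 fell and 3 rose, against the same 19.3% and 17.9% of all genes. The largest falls were in Atad5, which unloads the clamp (-1.63, adjusted p = 0.00128 with limma and the block), Clspn, an adaptor of the replication checkpoint (-1.38, 0.00113), Hells, a chromatin remodeller (-1.37, 0.00128), and Timeless, of the fork protection complex (-1.15, 0.00780). The 3 that rose were Cdkn1a, which encodes the cyclin-dependent kinase inhibitor p21, and the small polymerase subunits Pole4 and Pold4. Cdkn1a had 9490 ± 287 normalised counts in untreated and 17895 ± 4312 in treated cells (n = 3), a log2 change of 0.89 whose SE was 0.20 and whose adjusted p was 0.0837 in limma and 0.00107 with the block. Pole4 changed by 0.48 and Pold4 by 0.31 (0.0206 and 0.0402 with limma and the block), but Pold4 was at -0.03 under the length correction. In replicate 1 Timeless (1.37) and Atad5 (0.35) were higher in the treated library, and Pole4 (-0.72) and Pold4 (-0.58) were lower. In edgeR on 4 pairs with the block, the adjusted p was 0.746 for Pole4 and 0.837 for Pold4. Of the 8 genes for fork protection and cohesion 4 fell, of the 10 for origin firing 4, of the 18 for G1/S control 6, and of the 7 for chromatin 2. The 6 for G1/S control were Ccna2, Ccnd2, E2f7, Rb1, Rbl1 and Cdkn1b, which like Cdkn1a encodes a cyclin-dependent kinase inhibitor. Cdkn1b alone of the 64 genes passed in edgeR on 4 pairs with the block, as lower. Of the 6 other licensing genes, the 10 other polymerase subunits and processing genes and the 5 other deoxynucleotide genes, 1 each fell.

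Replicate 1 at 5 h had 1 library per group, so its ratios had no replicate check. The median log2 ratio over the 39 genes was -0.47, against -0.005 over 13498 genes whose mean reached 10, and 26 genes (66.7%) were below 0, where 50.2% of all genes were. With the length correction the median was -0.42 and 24 genes were below 0, where 49.3% of all genes were. The library labelled Untreated 5h replicate 1 is one of the pair that stood apart, and its part in these ratios was not tested beyond that correction. The roles did not move as one. The 4 genes for deoxynucleotide supply, the 3 G1/S regulators and 7 of the 8 clamp, loader and binding genes were below 0, whereas 5 of the 10 licensing genes and 3 of the 5 polymerase and primase genes were above 0. With the length correction 6 licensing and 2 polymerase and primase genes were above 0. Cdc6 had 8.20 normalised counts in the untreated and 44.9 in the treated library, a log2 ratio of 2.32 with a counting interval of 1.15 to 4.13 (exact, 95%, counting error only). Pole had 32.8 and 68.9, a ratio of 1.05 (0.36 to 1.85), or 0.54 with the length correction. Both were thus on the other side of 0 from all pairs of replicates 2 to 4. So were Mcm2 (0.425), Mcm3 (0.033), Mcm4 (0.223), Rfc1 (0.352), Pola2 (0.081), Pold1 (0.17), Chaf1a (0.476) and Uhrf1 (0.477), which had passed in limma with the block. The rest of the 22 genes that had passed there were below 0 in replicate 1. With the length correction Pola2 was at -0.294. In all 4 pairs 17 genes were lower (43.6%) and 0 were higher, where 15.9% of all genes were lower and 15.7% higher. In edgeR on the 4 pairs with the block, Rrm1 (-0.70, adjusted p = 0.0400) and Rrm2 (-0.80, 0.0487) were the 2 members that passed, where 1.29% of all genes passed as lower, and without replicate 1 the count in edgeR with the block was 22.

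The times of replicate 1 were then set side by side. The median log2 ratio of treated to untreated over the 39 genes started at 0.01 in the 1 h pair and stood at -0.47 after 5 h, -0.13 after 12 h and 0.26 after 24 h. Over all genes it was -0.06, -0.005, -0.01 and 0.02. At 12 h, 24 genes (61.5%) were below 0, where 51.0% of all genes were. At 24 h, 33 of the 39 genes (84.6%) were above 0, where 51.6% of all genes were, and with the length correction 32 were, where 51.9% of all genes were. All 10 licensing genes were above 0 at 24 h (median 0.32). The length correction left 9 above 0 and put Orc6 at -0.02. Mcm2 had 500 normalised counts in the untreated and 748 in the treated library, a ratio of 0.58 (0.43 to 0.73), and Mcm6 had 674 and 988, a ratio of 0.55 (0.42 to 0.68). Cdt1 had 95.7 and 193, a ratio of 1.00 (0.68 to 1.34), and it was also higher in treated cells at 5 h (1.00) and 12 h (0.91). At 1 h the directions were divided, with 21 genes above 0, where 47.0% of all genes were, and 18 below. Ccne2 (1.34), Pcna (1.27) and Orc6 (1.199) were the furthest above 0, and Pole (-1.52) and Cdc6 (-1.48) the furthest below. With the length correction Ccne2 (1.28), Mcm10 (1.16) and Tyms (0.97) were the furthest above 0, and Cdc6 (-1.28) and Pole (-1.11) the furthest below. The 1 h ratios include AMG-treated 1h replicate 1, the other library that stood apart, and its part in them was not tested beyond that correction.

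Both subunits of ribonucleotide reductase were lower in treated cells of replicate 1 at 5, 12 and 24 h. At 1 h the log2 ratio was -0.296 (-0.396 to -0.197) for Rrm1 and 0.669 (0.575 to 0.764) for Rrm2. With the length correction these 1 h ratios were 0.103 and 0.447. Rrm1 had 2303, 2689 and 2505 normalised counts in untreated and 1394, 1296 and 1344 in treated cells at 5, 12 and 24 h. The log2 ratios were -0.72 (-0.83 to -0.62), -1.05 (-1.14 to -0.96) and -0.90 (-0.99 to -0.81), so that Rrm1 was lower at each of these times. Rrm2 had 2803, 1399 and 1804 in untreated and 1242, 912 and 1140 in treated cells, with ratios of -1.17 (-1.27 to -1.07), -0.62 (-0.73 to -0.51) and -0.66 (-0.76 to -0.56). Of the other genes for deoxynucleotide supply, Tyms was above 0 at 12 h (0.41, 0.20 to 0.62) and at 24 h (0.26, 0.04 to 0.47). Besides Rrm1 and Rrm2, Prim1 and Tk1 were below 0 at 5, 12 and 24 h, which 19.5% of all genes were. At 24 h the ratio was -0.27 for Prim1 and -0.05 for Tk1, with counting intervals that included 0 (-0.64 to 0.09, and -0.28 to 0.17).

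**Figure D4:**
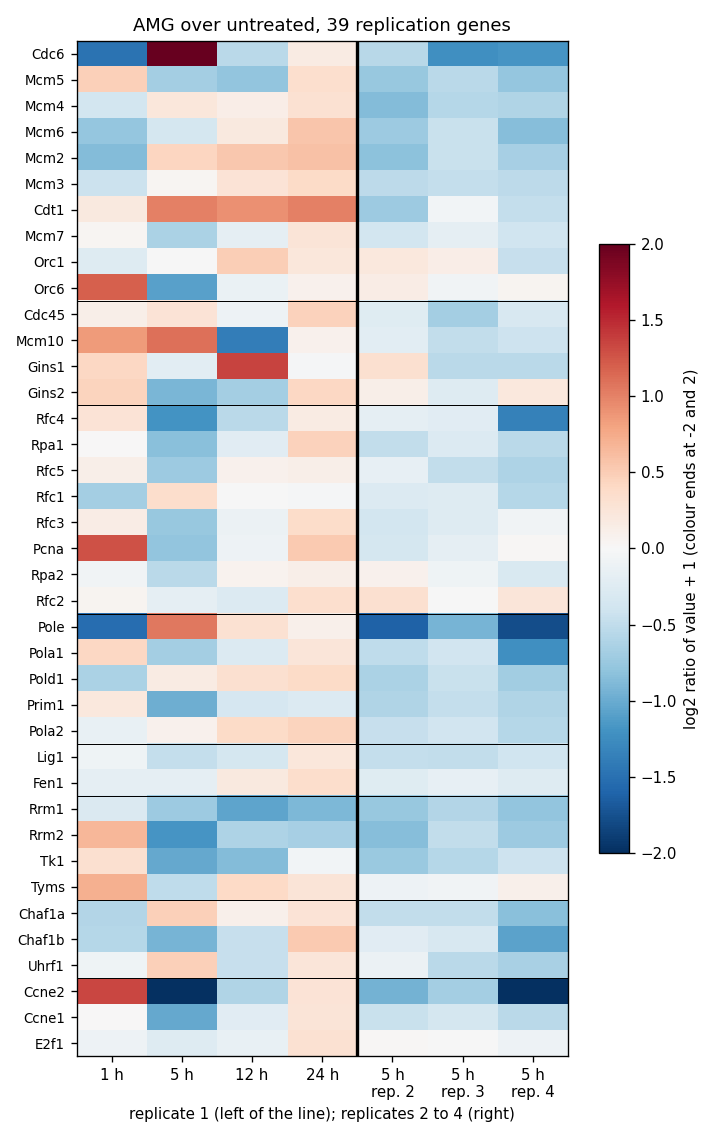
Log2 ratio of treated to untreated (normalised count + 1) for the 39 genes, ordered by role and separated by thin lines. The first 4 columns are replicate 1 at 1, 5, 12 and 24 h and the last 3 are replicates 2, 3 and 4 at 5 h, with blue below and red above 0 and colours ending at -2 and 2. The 24 h column is mostly red, with Rrm1 and Rrm2 blue, and the 3 columns on the right are mostly blue.

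In untreated cells of replicate 1 the median level of the group was higher at the end of the course than at its start, with no replicate check. Relative to 1 h, the median log2 ratio stood at -0.06 after 5 h, 0.12 after 12 h and 0.27 after 24 h, against -0.05, -0.004 and -0.02 over all genes. At 24 h, 26 of the 39 genes were above their 1 h level, where 48.8% of all genes were. For 19 genes (48.7%) the lowest untreated value was at 5 h, in the library that stood apart, which was so for 39.6% of all genes. Cdc6 had 69.4, 8.20, 46.1 and 85.0 normalised counts at 1, 5, 12 and 24 h, the widest range of the 39 genes at 9.35-fold, and Pole had 151, 32.8, 107 and 150.1. Pcna ran the other way, with 852, 1626, 675 and 535. Without the 5 h library, the untreated values of Cdc6 ranged from 46.1 to 85.0 and those of Pole from 107 to 151. Pola1 had 75.6 at 1 h and 142 at 24 h, the largest ratio over 1 h at 24 h (0.91). In treated cells Mcm2 had 273, 260, 628 and 748 at the 4 times, and Pole had 52.2, 68.9, 132 and 160.

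**Figure D5:**
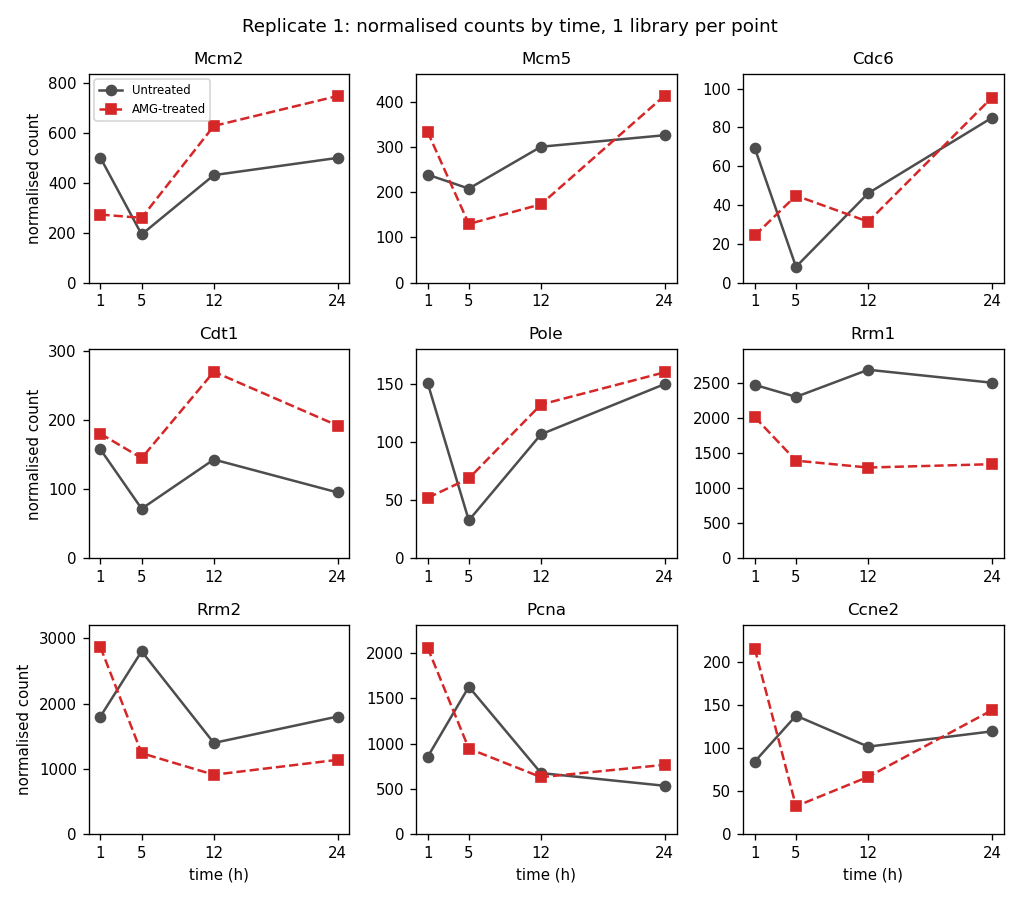
Normalised counts of 9 genes in replicate 1 by time, with 1 library per point, grey circles for untreated and red squares for AMG-treated cells. Rrm1 is lower in treated cells at all 4 times and Rrm2 at 5, 12 and 24 h. The untreated 5 h point of Cdc6, at 8.20, and of Pole, at 32.8, is the lowest of its course.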

How the data were processed

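The authors prepared stranded poly(A) libraries and sequenced single-end reads. They aligned unique reads to mm10 with TopHat2 2.0.13 and counted them per gene with HTSeq 0.5.3p3. The annotation release and strand setting are not given in the sources used here. The deposited values are a normalised signal, read counts divided by a size factor for each library, and the 8 libraries of replicate 1 and the 6 of replicates 2 to 4 were scaled apart, so levels were not compared across tables. All values (100%) were whole multiples of 1 read within 0.1. Totals of the recovered reads ranged from 12545537 to 34696529. No row lacked a gene name. Reads carry no molecular identifiers, so intervals cover counting error only, and the labels do not say whether replicates are separate animals, so p-values measure the spread between these libraries.

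The main test was limma 3.58.1 in R 4.3.3 on log2(normalised count + 1), eBayes with trend, 3 against 3 libraries at 5 h, on 13096 genes with a mean of at least 10, with Benjamini-Hochberg adjustment over all of them. Fold changes are on this scale, which understates changes of low genes, except where edgeR or another alternative fit is named. Deviations from group means correlated with r = 0.65, 0.77 and 0.70 between libraries of the same number and from -0.59 to 0.12 otherwise, so the numbers were taken to pair the libraries. What a number stands for is not given in the labels. Alternatives were the replicate block, a pseudocount of 0.1 or 10, no filter on low genes, a minimum mean of 50, eBayes without the trend, DESeq2 1.42.0 and edgeR 4.0.16 on the recovered reads, upper quartile scaling, a lowess correction for GENCODE M21 exon length, and leaving out libraries or pairs. The code was tested on simulated data. Replicate 1 was described without tests. The members and lists were chosen with earlier results of these data known. Every member could be named, and of the other list only genes that passed, with values for at most the 4 largest changes in each direction. Promoters were printed for the 4 members with the most E2F matches.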

Additional observations from a re-analysis of the deposited data

Results flagged for a closer look

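At 5 h, 42 groups of 4 values were searched for 1 value far from the rest, of which chance marks about 1 in 20. They were the ratios of the 39 genes in the 4 pairs, their median, and the share of reads in the genes in untreated and in treated cells. The values found were both of replicate 1. Mcm3 had a log2 ratio of 0.033 in replicate 1, against -0.48 to -0.53 in the others. Orc6 had -1.09 in replicate 1, against -0.07 to 0.14. With the length correction, the values of replicate 1 were 0.10 for Mcm3 and -0.71 for Orc6.

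At 24 h in replicate 1 the median log2 ratio over the 39 genes was 0.26, while it was below 0 in each of the 4 pairs at 5 h. The same turn was seen in 13 genes, which were lower in all 4 pairs at 5 h and higher at 24 h. These were 33.3% of the 39 genes, where 4.05% of the 12844 genes whose mean reached 10 in both tables showed this turn. Their log2 ratios at 24 h were 0.34 for Mcm5, 0.55 for Mcm6 and 0.25 for Mcm7. They were 0.36 for Rfc3, 0.16 for Rfc4, 0.12 for Rfc5 and 0.45 for Rpa1. They were 0.24 for Pola1, 0.35 for Fen1, 0.23 for Lig1 and 0.53 for Chaf1b. For the cyclins they were 0.26 for Ccne1 and 0.27 for Ccne2. The counting intervals at 24 h included 0 for Rfc4 (-0.191 to 0.51), Rfc5 (-0.115 to 0.363), Pola1 (-0.06 to 0.541) and Ccne2 (-0.058 to 0.597). With the length correction the 24 h value of Rfc4 was -0.04. With 1 library per group at 24 h the difference between the times was not tested.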

How the results depend on the processing

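Calls at 5 h turned on the pairing. The counts of members that passed as lower were 22 with the replicate block, 22 in edgeR with the replicate block, 21 with the length correction and the block, 4 in DESeq2 and 2 in edgeR on 4 replicates with the block, against 0 in the unpaired test. For the 64 other genes they were 19, 19, 18, 5 and 1 as lower, and 3, 3, 4 and 1 as higher in the first 4 of these. Over all 13096 genes tested, 162 passed in either direction in limma without the block and 4872 with it. Leaving out 1 library in the unpaired test gave 0 to 9 members and 0 to 11 other genes as lower and 0 to 1 other genes as higher, and only AMG-treated 5h replicate 3 moved these counts from 0. Leaving out 1 pair with the replicate block gave 9 to 25 members and 10 to 24 other genes as lower and 1 to 12 other genes as higher. Over all genes tested, 1419 to 6800 passed in these fits in either direction. The largest counts were those without replicate 3. The median of the members ranged from -0.628 to -0.333 without 1 library and from -0.518 to -0.396 without 1 pair, and was -0.384 in edgeR on 4 replicates with the block.

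Among single members at 5 h, values near 0 turned sign. Orc6 was -0.005 under upper quartile scaling, -0.229 in edgeR on 4 replicates with the block and -0.090 under the length correction with or without the block. Gins2 was -0.024 under upper quartile scaling and -0.197 in edgeR on 4 replicates with the block. Tyms was 0.086 under the length correction with or without the block. With 1 library left out, values ranged from -0.240 to 0.097 for Orc1, -0.017 to 0.158 for Orc6, -0.426 to 0.066 for Gins1, -0.107 to 0.138 for Gins2, -0.252 to 0.036 for Rpa2, -0.274 to 0.250 for Tyms and -0.091 to 0.021 for E2f1. With 1 pair left out and the replicate block, they ranged from -0.168 to 0.167 for Orc1, -0.006 to 0.097 for Orc6, -0.540 to -0.108 for Gins1, -0.066 to 0.161 for Gins2, -0.197 to -0.006 for Rpa2, -0.083 to 0.015 for Tyms and -0.056 to 0.011 for E2f1. Gins2 was -0.023 without replicate 2. The cause was not tested.

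In replicate 1 the 12 h median was -0.19 under upper quartile scaling and -0.07 under the length correction, and the 24 h median was 0.20 under upper quartile scaling. In untreated cells the medians over 1 h were 0.13 at 5 h under the length correction, and 0.24 at 12 h and 0.40 at 24 h under upper quartile scaling. Depth limits the members with few reads, such as Cdc6 in untreated replicate 1 at 5 h. Replicate 1 has no error estimate, and a pair of its libraries stood apart.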
